A study of Mus musculus with 8 samples.

Results

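The 80 genes described here carry symbols used for nuclear-encoded subunits of oxidative phosphorylation. A symbol alone does not show that each product is a structural subunit. They were chosen by symbol (Nduf with a, b, c, s or v and a number, Ndufab1, Sdha to Sdhd, Uqcr, Cox4 to Cox8 and Atp5, each with at most a short ending) from 50578 genes in the count table. Oxidative phosphorylation is carried out in the inner mitochondrial membrane by 5 protein complexes. Complexes I to IV pass electrons from NADH and succinate to oxygen, complexes I, III and IV pump protons meanwhile, and complex V, the ATP synthase, uses the proton gradient to make ATP. Most subunits are encoded in the nucleus and a small number in mitochondrial DNA, and several nuclear genes have a tissue-restricted paralogue. They comprised 37 genes of complex I, 4 of complex II, 8 of complex III, 15 of complex IV and 16 of complex V. Complexes were assigned by symbol alone, so Ndufa4, since assigned to complex IV, is counted in complex I throughout. All 80 are annotated as protein coding, and 3 of them are on the X chromosome.

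Transcriptomes were measured by RNA-seq in mouse embryonic fibroblasts (MEFs), primary connective tissue cells from wild-type embryos, and in the same kind of cells cultured with carbidopa, LY-364747 or CHIR-99021. The question was how the molecules change the transcriptome of MEFs on the way towards a hepatic-like state. Each group had 2 libraries, and the molecules were added at 10 µM once the cells had attached for 2 h, with a change of medium every 3 days. Carbidopa inhibits aromatic-L-amino-acid decarboxylase, and CHIR-99021 inhibits the kinase GSK3. The name LY-364747 follows the sample labels; the methods of the study write LY-364947, an inhibitor of the TGF-beta receptor. The MEFs were used at passage P3 to P5 and came from C57BL/6J embryos whose head, tail, limbs and organs had been removed. The control MEFs carried no treatment in the labels, and neither a vehicle nor the day of harvest for RNA-seq is given in the sources used here. Whether the 2 libraries of a group came from separate cultures is not stated either, so p-values measure the spread between libraries, which may be technical.

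Total counts were 15039566 to 20504338 per library, of which the 80 genes took 0.399% to 0.703%. The labels call the treated cells hepatic-like. The sum of 10 hepatocyte markers was 0.223 and 0.193 CPM (counts per 1000000 reads) in MEFs. It was 0.517 and 0.746 CPM with carbidopa, 1.18 and 1.01 with LY-364747 and 0.920 and 1.04 with CHIR-99021. All treated libraries were above both MEF libraries, though every sum was very low, and 4 of the 10 markers had no read at all. Fibroblast markers (12 genes) summed to 40390.5 and 40154 CPM in MEFs and to 9634 to 13122 CPM in the treated libraries. Macrophage markers (16 genes) summed to 1315 and 1354 CPM in MEFs, 389 to 408 with carbidopa, 290 to 299 with LY-364747 and 98.1 to 104 with CHIR-99021. Skeletal muscle markers (14 genes, 1 of them without a read) summed to 48.5 to 51.5 CPM in MEFs and 7.07 to 18.1 CPM in the treated libraries, and 9 brown adipocyte markers to 7.07 to 15.1 CPM in any library. The part of these shifts in the changes below was not tested, and in bulk RNA fewer cells of a type and less RNA per cell cannot be told apart.

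One library stood apart for these genes. Carbidopa 1 held the highest level of all 8 libraries in 69 of 75 tested subunit genes, compared with 21.3% of all 15154 genes tested, and exceeded Carbidopa 2 in 73 of 75. The median difference between the 2 libraries of a group was 0.40 on the log2 scale for carbidopa, against 0.03 for MEFs, −0.07 for LY-364747 and 0.01 for CHIR-99021. Over all genes, the difference between the carbidopa libraries fell with transcript length, from 0.31 for transcripts of up to 1 kb to −0.17 for those over 5 kb, and the subunit genes were mostly short, with a median of 1756 bases of merged exons. Among the 17 subunit genes of up to 1 kb the median difference was 0.50, and among the 15 of 3 to 5 kb it was 0.34. The changes of subunit genes with carbidopa are given, where printed, with and without Carbidopa 1, and so are some of the counts of genes called. The part of this library in them beyond that was not tested.

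**Figure D1:**
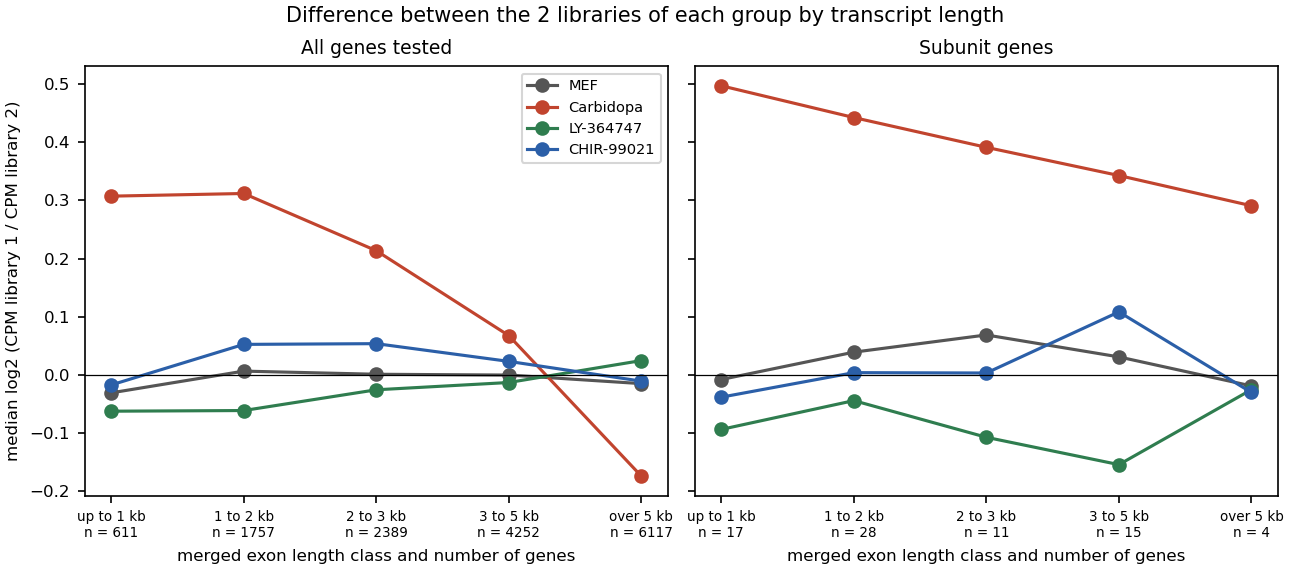
Median log2 ratio of library 1 to library 2 of each group (y axis) by class of merged exon length (x axis, kb, with the number of genes), for all 15154 genes tested (left) and the 75 tested subunit genes (right); each line is a group. The carbidopa line falls from 0.31 to −0.17 over all genes and stays between 0.50 and 0.29 for the subunit genes, while the lines of the other groups stay between −0.15 and 0.11.

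Of the 80 genes, 75 passed the filter on low counts. The other 5 are the tissue-restricted complex IV paralogues Cox6a2, Cox7a1, Cox7b2, Cox8b and Cox8c, described with their families below. Levels were compared between genes per length, as CPM per kb of merged exons averaged over the 8 libraries. The tested genes ranged from 2.57 to 199 CPM per kb, with medians of 23.6 for complex I, 35.5 for complex II, 39.9 for complex III, 46.9 for complex IV and 41.2 for complex V. The highest of its complex was Ndufa1 in complex I (56.3 CPM per kb), Sdhd in complex II (51.4), Uqcrb in complex III (119), Cox6b1 in complex IV (199) and Atp5b, the catalytic beta subunit, in complex V (136). In absolute terms Atp5b held the most reads, with 545 and 522 CPM in MEFs, then 670.1 and 549.9 after carbidopa, 485 and 540.1 after LY-364747 and 676 and 632 after CHIR-99021. The carbidopa and CHIR-99021 libraries were above the MEF libraries, Carbidopa 2 by a small step, and the LY-364747 libraries overlapped them.

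Across all 80 genes, the summed level was higher in every treated group than in MEFs. MEF 1 and MEF 2 summed to 4637 and 4533 CPM, the carbidopa libraries to 6611 and 5155, the LY-364747 libraries to 4885 and 5164 and the CHIR-99021 libraries to 5198 and 5055. All 6 treated libraries were above both MEF libraries, and Carbidopa 1 was above the other treated ones. Group means relative to MEFs were 1.28 times for carbidopa, 1.10 for LY-364747 and 1.12 for CHIR-99021, while Carbidopa 2 alone was at 1.12 times and Carbidopa 1 alone at 1.44 times. By complex, the carbidopa ratio ran from 1.21 (complex V) to 1.42 (complex III), and in Carbidopa 2 alone from 1.07 to 1.25. With CHIR-99021 complex III was at 1.26 times and complex IV at 0.981 times the MEF level, and with LY-364747 the ratios lay between 1.03 (complex V) and 1.18 (complex III). These sums are descriptions without a test.

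**Figure D2:**
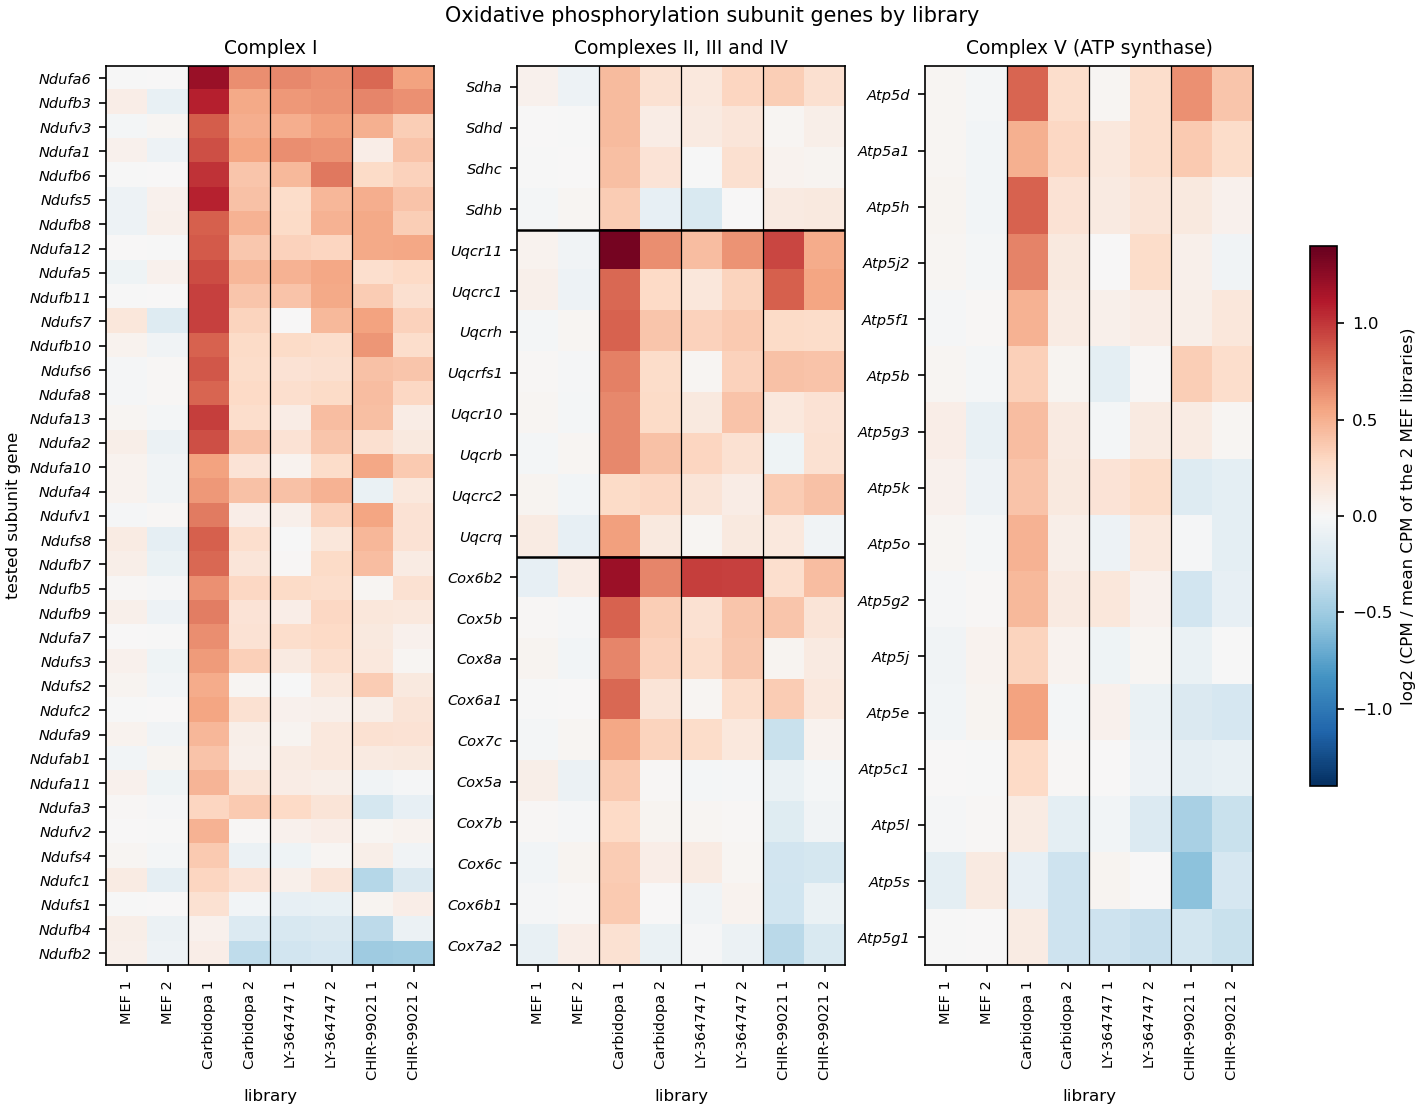
Level of the 75 tested subunit genes (rows, sorted within each complex by their mean over the treated libraries on this scale) in each of the 8 libraries (columns), as log2 of CPM relative to the mean of the 2 MEF libraries. Carbidopa 1 is the darkest red column, holding the highest value in 69 of 75 genes, and blue fields gather in complexes IV and V with CHIR-99021.

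The promoters of the members most prominent in the comparisons are shown first, since nuclear respiratory factors are known to bind many promoters of this gene class. Of the 80 genes, 68 had a promoter entry in RefSeq (GRCm38.p6; 250 bases before to 50 after the start). The word GCGCANGCG of NRF1 was found on either strand in 20 of 68 (29.4%), against 7.03% of all 27025 genes and 14.7% of the 10706 tested genes with an entry. For the word CCGGAAGT of GABPA the numbers were 5 of 68 (7.35%), 4.31% and 8.69%, and for the word AAGATGGC of YY1, which holds a start codon, 10 of 68 (14.7%), 3.19% and 5.02%. The NRF1 word is nearly its own reverse complement, so that 1 stretch can match on both strands. Any of the 3 words was present in 32 of 68 members (47.1%) and in 25.5% of tested genes. Below are 100 bases before and 30 after the start of Uqcr11 and Cox6b2 (the largest changes with carbidopa), Uqcrc1 (large with CHIR-99021) and Sdha (3 NRF1 words), from 5′ to 3′, with word matches in capitals. Their positions are chr10:80406792-80406921 (minus strand), chr7:4753065-4753194 (minus strand), chr9:108936548-108936677 (plus strand) and chr13:74350211-74350340 (minus strand).
Uqcr11: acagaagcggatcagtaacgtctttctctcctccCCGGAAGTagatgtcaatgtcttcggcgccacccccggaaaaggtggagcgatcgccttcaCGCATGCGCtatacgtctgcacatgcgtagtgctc
Cox6b2: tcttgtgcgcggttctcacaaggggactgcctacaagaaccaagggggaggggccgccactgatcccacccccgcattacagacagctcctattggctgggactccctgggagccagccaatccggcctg
Uqcrc1: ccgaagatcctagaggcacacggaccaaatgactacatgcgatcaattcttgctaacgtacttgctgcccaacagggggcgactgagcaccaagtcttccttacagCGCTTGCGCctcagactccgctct
Sdha: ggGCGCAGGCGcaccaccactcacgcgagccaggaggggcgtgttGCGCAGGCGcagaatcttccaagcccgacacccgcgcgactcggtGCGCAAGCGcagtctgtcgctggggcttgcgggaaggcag
In Uqcr11 the first word in capitals is that of GABPA, 66 bases before the start, and the second that of NRF1, 5 bases before it. The Cox6b2 window held none of the 3 words. That of Uqcrc1 held an NRF1 word 6 bases after the start, and others 30 and 31 bases after the start lie beyond the window. The Sdha window held NRF1 words 98, 55 and 10 bases before the start. A match is a stretch of letters and no measurement of binding.

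With carbidopa, 41 of 75 subunit genes rose and none fell against MEFs (edgeR, adjusted p under 0.05), where 18.0% of all genes tested rose and 19.7% fell. At an unadjusted p under 0.05 the numbers were 50 and 0, and DESeq2 called 37 and 0. The rises were small: the median log2 fold change was 0.43, against 0.04 over all genes, and the largest was 1.03. By transcript length, the median over all genes was 0.23 (up to 1 kb), 0.28 (1 to 2 kb), 0.18 (2 to 3 kb), 0.08 (3 to 5 kb) and −0.11 (over 5 kb). In the same classes the subunit genes were at 0.57, 0.49, 0.28, 0.39 and 0.04. Those that rose were 25 of 37 genes of complex I, 1 of 4 of complex II, 7 of 8 of complex III, 5 of 10 of complex IV and 3 of 16 of complex V, and without Carbidopa 1 they were 12, 0, 4, 3 and 1. In 62 of 75 genes both carbidopa libraries were above both MEF libraries, compared with 35.6% of all genes. Without Carbidopa 1, 20 of the 41 calls remained and 1 fall, of Atp5g1, was added (14.4% of all genes rose and 18.0% fell), with a median of 0.20. With a correction for transcript length in each library, chosen after the data were seen, 21 of the 41 remained (17.9% of all genes rose), with a median of 0.24. Of the 41, 16 were called in both of these fits. Fewer rises were called without MEF 1 or MEF 2 and more without Carbidopa 2, with medians of 0.43, 0.39 and 0.57. Each of these fits leaves 1 library in a group, which is then assumed to vary like the others, and tests Cox6a2 as a further member.

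With LY-364747, 8 of 75 subunit genes rose and none fell, where 13.7% of all genes rose and 17.2% fell. The unadjusted numbers were 13 and 1, and DESeq2 called 8 and 0. The median log2 fold change was 0.15. The rises comprised 7 genes counted in complex I by symbol (Ndufa1, Ndufa4, Ndufa5, Ndufa6, Ndufb3, Ndufb6 and Ndufv3) and Cox6b2 of complex IV. Ndufa4 among them has since been assigned to complex IV. All 8 also rose with carbidopa, a comparison that shares the MEF libraries. Both LY-364747 libraries lay above both MEF libraries in 46 of 75 genes, compared with 37.6% of all genes, and below them in 5, compared with 35.2%. All 8 remained without Carbidopa 1, where 23 subunit genes (19.0% of all genes) were called higher and 1, Atp5g1, lower (22.1%). Without MEF 1, MEF 2, LY-364747 1 or LY-364747 2, the numbers called higher were 2, 1, 3 and 1, and Cox6b2 was among them each time.

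With CHIR-99021, 11 of 75 subunit genes rose and 2 fell, where 18.7% of all genes rose and 20.1% fell. The median log2 fold change was 0.13. The rises were 6 genes of complex I (Ndufa6, Ndufa10, Ndufa12, Ndufb3, Ndufb8 and Ndufv3), 3 of complex III (Uqcr11, Uqcrc1 and Uqcrc2) and 2 of complex V (Atp5a1 and Atp5d). The falls were Ndufb2 of complex I and Atp5l of complex V. All 11 that rose also rose with carbidopa, again against the same MEF libraries. Both CHIR-99021 libraries lay above both MEF libraries in 47 of 75 genes, compared with 40.4% of all genes, and below them in 14, compared with 35.8%. At an unadjusted p under 0.05 the numbers were 17 and 3. DESeq2 called 8 and 2 among 79 genes, which include genes below the filter. Of its 2 falls, 1 was Atp5l and 1 was a gene of complex IV. All 13 calls remained without Carbidopa 1, where 27 subunit genes (25.1% of all genes) were called higher and 6 (24.2%) lower. Of the 13, 3 remained without MEF 1 (Ndufb3, Uqcrc1 and Uqcrc2), 7 without CHIR-99021 2, 1 without CHIR-99021 1 (Uqcrc2) and none without MEF 2, where edgeR called only the low-count Cox6a2.

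**Figure D3:**
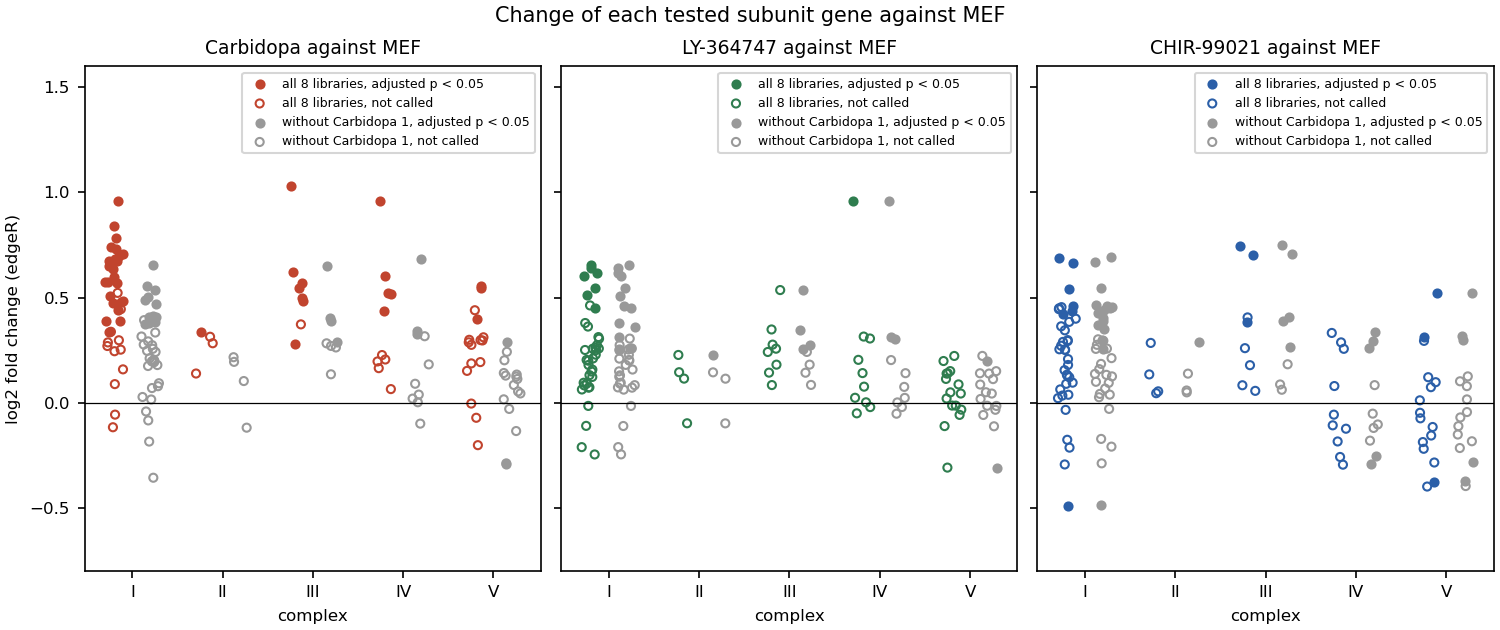
Log2 fold change against MEFs (y axis) of each tested subunit gene by complex (x axis) for carbidopa, LY-364747 and CHIR-99021; colored points are from all 8 libraries, grey points from the fit without Carbidopa 1, and filled points have an adjusted p under 0.05. With carbidopa the grey points lie below the colored ones (medians 0.20 and 0.43), and with CHIR-99021 complexes IV and V spread on both sides of 0.

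Scaling bears on these counts. With TMM scaling the median of all genes was 0.04, 0.03 and 0.04 for carbidopa, LY-364747 and CHIR-99021, and with total counts only it was 0.29, 0.25 and 0.26. Relative to that median, the subunit genes were at 0.40, 0.12 and 0.09 with either scaling. With total counts only, 67, 32 and 31 subunit genes rose and none fell, while over all genes 5542 rose and 1956 fell with carbidopa (2732 and 2985 with TMM), 4232 and 1814 with LY-364747 (2081 and 2613) and 5115 and 2217 with CHIR-99021 (2835 and 3043).

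In complex I, which oxidizes NADH, the genes called in all 3 comparisons were Ndufa6, Ndufb3 and Ndufv3, accessory subunits around the catalytic core (Ndufv3 was singled out after its values were seen). Ndufa6 (chr15:82350140-82354322) was at 19.5 and 19.7 CPM in control MEFs, 45.4 and 30.9 under carbidopa, 31.2 and 30.5 under LY-364747 and 34.3 and 28.9 under CHIR-99021. All 6 treated libraries were above the MEF libraries, with Carbidopa 1 highest. Its log2 fold change was 0.96 ± 0.17 (SE, adjusted p = 0.00180) with carbidopa, 0.65 without Carbidopa 1, 0.65 ± 0.18 (adjusted p = 0.0170) with LY-364747 and 0.69 ± 0.18 (adjusted p = 0.0111) with CHIR-99021. Ndufb3 (chr1:58586384-58595964), a subunit of the membrane arm, was at 18.9 and 16.5 CPM in MEFs, then 37.6 and 25.6 after carbidopa, 26.9 and 27.3 after LY-364747 and 28.5 and 27.5 after CHIR-99021. The treated libraries again lay above both MEF libraries, and apart from Carbidopa 1 they fell within a narrow range. The changes of Ndufb3 were 0.84 ± 0.17 (adjusted p = 0.00379), 0.62 ± 0.17 (adjusted p = 0.0211) and 0.66 ± 0.17 (adjusted p = 0.0124), and 0.54 with carbidopa without Carbidopa 1. Ndufv3, next to the NADH-binding site, was at 31.3 and 32.4 CPM in control MEFs, 57.1 and 45.2 under carbidopa, 45.5 and 47.5 under LY-364747 and 44.8 and 40.5 under CHIR-99021. It rose by 0.68 ± 0.13, 0.54 ± 0.13 and 0.42 ± 0.13 (adjusted p = 0.00223, 0.00898 and 0.0264), and with carbidopa by 0.50 without Carbidopa 1 (adjusted p = 0.00304). The carbidopa calls of all 3 genes held in all 18 alternatives. Their LY-364747 calls were lost without 1 MEF or LY-364747 library, except for Ndufv3 without LY-364747 1, and their CHIR-99021 calls without MEF 2 or CHIR-99021 1 and, for Ndufa6 and Ndufv3, without MEF 1; that of Ndufv3 was also lost with DESeq2.

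Ndufa1 (chrX:37187588-37191163, on the X chromosome), a small membrane subunit needed for assembly, was at 18.2 and 16.6 CPM in MEFs, then 32.5 and 25.6 after carbidopa, 27.4 and 26.9 after LY-364747 and 18.5 and 22.9 after CHIR-99021. The carbidopa and LY-364747 libraries were above those of the MEFs, and CHIR-99021 1 was close to MEF 1. It rose by 0.74 ± 0.15 with carbidopa (adjusted p = 0.00398; 0.56 and 0.0101 without Carbidopa 1) and 0.64 ± 0.15 with LY-364747 (adjusted p = 0.00951); with CHIR-99021 the change was 0.25 ± 0.16 (adjusted p = 0.232). The carbidopa call was lost without MEF 2, and the LY-364747 call without MEF 2 or either LY-364747 library. Ndufa4 (chr6:11900292-11907497), named as a complex I subunit but since assigned to complex IV, was at 55.9 and 52.2 CPM in control MEFs, 82.1 and 71.9 under carbidopa, 71.8 and 76.0 under LY-364747 and 50.9 and 59.8 under CHIR-99021. The LY-364747 and carbidopa libraries were high, and the CHIR-99021 libraries lay on both sides of the MEF values. It rose by 0.51 ± 0.12 with carbidopa (adjusted p = 0.00699; 0.41 and 0.0130 without Carbidopa 1) and 0.45 ± 0.12 with LY-364747 (adjusted p = 0.0143), and its level with CHIR-99021 was below that with LY-364747, at a log2 difference of −0.42 ± 0.12 (adjusted p = 0.0387). The LY-364747 call was lost without any MEF or LY-364747 library, and the carbidopa call without MEF 2 and with the correction for length.

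Ndufb2 (chr6:39592574-39603382), an accessory subunit of the membrane arm, was the member of complex I that fell. Its level was 17.5 and 15.8 CPM in MEFs, then 17.7 and 13.0 after carbidopa, 13.9 and 14.2 after LY-364747 and 11.8 and 11.8 after CHIR-99021. Both CHIR-99021 libraries were the lowest of all 8. The fall was −0.49 ± 0.17 with CHIR-99021 (adjusted p = 0.0387), and it lost its call when any library of MEFs, LY-364747 or CHIR-99021 was left out, with DESeq2 and with total counts only, in each case with the same sign. Of the 7 core subunits of complex I, which hold the flavin and the iron-sulfur clusters, 3 rose with carbidopa (median 0.44). Of the 30 accessory subunits 22 rose (median 0.54), where 18.0% of all genes rose. Without Carbidopa 1 the medians were 0.09 and 0.27. With the length correction 0 core subunits (edgeR, 2 at an unadjusted p under 0.05) and 13 accessory subunits rose, against 17.9% of all genes. The medians were then 0.25 and 0.32.

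In complex II, succinate dehydrogenase, which also works in the TCA cycle and has no subunit encoded in mitochondrial DNA, 1 gene was called. Sdha, the flavoprotein that oxidizes succinate, was at 166 and 152 CPM in control MEFs, 217 and 185 under carbidopa, 176 and 196 under LY-364747 and 202 and 185 under CHIR-99021. All treated libraries exceeded both MEF libraries. It rose by 0.34 ± 0.12 with carbidopa (adjusted p = 0.0427), and without Carbidopa 1 the change was 0.22 (adjusted p = 0.116). The call was lost without any of the 7 libraries other than Carbidopa 2, and with RLE scaling. The iron-sulfur subunit Sdhb was at 41.4 and 42.7 CPM in MEFs, then 53.9 and 38.7 after carbidopa, 36.3 and 42.2 after LY-364747 and 46.0 and 46.4 after CHIR-99021. Its groups overlapped, with the MEF values inside the range of the carbidopa libraries. The membrane anchors Sdhc and Sdhd changed by 0.31 ± 0.11 and 0.28 ± 0.12 with carbidopa (adjusted p = 0.0538 and 0.0884; 0.19 and 0.10 without Carbidopa 1) and by 0.04 and 0.05 with CHIR-99021.

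In complex III, cytochrome bc1, 7 of 8 genes rose with carbidopa and 3 with CHIR-99021, where 18.0% and 18.7% of all genes rose. Uqcr11 (chr10:80402997-80406830), a small accessory subunit whose promoter is shown above, had the largest rise of all members. It was at 16.8 and 15.7 CPM in control MEFs, 41.0 and 25.4 under carbidopa, 22.0 and 25.1 under LY-364747 and 31.1 and 23.4 under CHIR-99021. The 6 treated libraries lay above the MEFs, and the carbidopa libraries were farther from each other than Carbidopa 2 was from the MEFs. The changes were 1.03 ± 0.22 with carbidopa (adjusted p = 0.00471; 0.65 without Carbidopa 1, adjusted p = 0.0117) and 0.75 ± 0.22 with CHIR-99021 (adjusted p = 0.0230). Uqcrc1 (chr9:108936633-108949623), a large core protein of the matrix side, was at 72.1 and 65.4 CPM in MEFs, then 120.2 and 83.5 after carbidopa, 76.9 and 85.6 after LY-364747 and 122 and 101 after CHIR-99021. CHIR-99021 1 and Carbidopa 1 were the highest, and CHIR-99021 2 came next. It rose by 0.70 ± 0.17 with CHIR-99021 (adjusted p = 0.00794) and 0.57 ± 0.17 with carbidopa (adjusted p = 0.0232); without Carbidopa 1 the latter was 0.28 (adjusted p = 0.105), and the level with CHIR-99021 was then higher than with carbidopa by 0.42 (adjusted p = 0.0359). Uqcrb, which lies near the quinone-binding site, was at 86.8 and 89.7 CPM in control MEFs, 140.4 and 117 under carbidopa, 109 and 102 under LY-364747 and 84.9 and 102 under CHIR-99021. It rose with carbidopa (0.54 ± 0.12, adjusted p = 0.00699; 0.40 and 0.0138 without Carbidopa 1) and, with CHIR-99021, lay on both sides of the MEF values; 16.7% of its 75-base exon words occur in other genes, so its count is less certain. The CHIR-99021 calls of Uqcr11 and Uqcrc1 were lost without MEF 2 or CHIR-99021 1 (that of Uqcr11 also without MEF 1), and the carbidopa call of Uqcrb without either MEF library and with the correction for length.

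In complex IV, cytochrome c oxidase, 5 of 10 tested genes rose with carbidopa, 1 with LY-364747 and none with CHIR-99021 (edgeR). With CHIR-99021, 1 gene, Cox6c, fell at an unadjusted p under 0.05. DESeq2, which also took in genes below the filter, called 1 fall in complex IV. Without Carbidopa 1 the medians of the 10 tested genes were 0.14 with carbidopa, 0.11 with LY-364747 and −0.08 with CHIR-99021. With all 8 libraries, 18.0%, 13.7% and 18.7% of all genes rose with carbidopa, LY-364747 and CHIR-99021. The median of complex IV with CHIR-99021 was −0.08, and 0.13 with total counts only, so its sign depended on the scaling. The paralogue families differed within themselves. Cox6b2 (chr7:4751792-4753094), known as the testis form of the subunit that lies between the monomers of the enzyme, was at 19.9 and 23.3 CPM in MEFs, then 49.4 and 34.8 after carbidopa, 42.3 and 41.9 after LY-364747 and 25.4 and 29.0 after CHIR-99021. The carbidopa and LY-364747 libraries were all higher than those of MEFs and CHIR-99021, and the CHIR-99021 libraries lay just above the MEFs. It rose by 0.96 ± 0.17 with carbidopa (adjusted p = 0.00140) and 0.96 ± 0.17 with LY-364747 (adjusted p = 0.00150), calls that held in all 18 alternatives. Without Carbidopa 1 the carbidopa change was 0.68 (adjusted p = 0.00139). With CHIR-99021 the change was 0.33 ± 0.17 (adjusted p = 0.152; 0.33 and 0.0242 without Carbidopa 1), and the log2 difference was −0.63 ± 0.16 to LY-364747 (adjusted p = 0.0296) and −0.63 ± 0.16 to carbidopa (adjusted p = 0.0291; −0.35 and 0.0708 without Carbidopa 1). The common form Cox6b1 was at 138 and 141 CPM in control MEFs, 180.4 and 140.0 under carbidopa, 135 and 145 under LY-364747 and 115 and 131 under CHIR-99021. Its changes were 0.20 (0.00 without Carbidopa 1), 0.00 and −0.18 for carbidopa, LY-364747 and CHIR-99021, with none called.

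Of the other families, Cox6a1, the common form, was at 81.6 and 82.7 CPM in MEFs, then 143 and 93.2 after carbidopa, 83.6 and 97.5 after LY-364747 and 105 and 90.9 after CHIR-99021. It rose with carbidopa (0.52 ± 0.18, adjusted p = 0.0416), but not without Carbidopa 1 (0.18, adjusted p = 0.262). Its muscle form Cox6a2 had 15 and 10 reads in the control libraries, 2 and 10 under carbidopa, 6 and 5 under LY-364747 and 2 and 1 under CHIR-99021. The most reads were in MEF 1, and Carbidopa 2 had as many as MEF 2. The skeletal muscle markers were also highest in the MEFs, their part was not tested, and the gene did not pass the filter. Cox7a2 changed by 0.06 (−0.10 without Carbidopa 1), −0.05 and −0.30 with no call with all 8 libraries (with CHIR-99021 it was a fall without Carbidopa 1, −0.29, adjusted p = 0.0281), and the muscle form Cox7a1 had 2 to 8 reads per library. Cox7b changed by 0.16 (0.04 without Carbidopa 1), 0.02 and −0.11 with no call, and its paralogue Cox7b2 had 1 read in all, in Carbidopa 2. Cox8a was at 84.7 and 80.5 CPM in control MEFs, 132 and 104 under carbidopa, 97.9 and 107 under LY-364747 and 84.7 and 89.8 under CHIR-99021. It rose with carbidopa (0.51 ± 0.13, adjusted p = 0.00961; 0.33 and 0.0185 without Carbidopa 1), and was lower with CHIR-99021 than with carbidopa (−0.44 ± 0.13, adjusted p = 0.0430; −0.24 and 0.0922 without Carbidopa 1). The muscle form Cox8b had 1 read in Carbidopa 1 and 1 in LY-364747 1, and the testis form Cox8c was at 0 reads throughout, a count that allows up to 3 reads per library. The carbidopa calls of Cox6a1 and Cox8a were both lost without either MEF library.

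In complex V, 3 of 16 genes rose with carbidopa (Atp5a1, Atp5d and Atp5h; 1 rose and 1 fell without Carbidopa 1), and 2 rose and 1 fell with CHIR-99021, where the median of −0.06 became 0.15 with total counts only. With all 8 libraries these counts were close to or below the shares of all genes. Those shares were 18.0% rising with carbidopa, and 18.7% rising and 20.1% falling with CHIR-99021. Atp5l (chr9:44912557-44920742), subunit g at the base of the enzyme where dimers form, was at 116 and 118 CPM in MEFs, then 127 and 106 after carbidopa, 114 and 103 after LY-364747 and 85.5 and 94.4 after CHIR-99021. Both CHIR-99021 libraries were below all others, and the carbidopa libraries lay on both sides of the MEFs. The fall with CHIR-99021 was −0.38 ± 0.12 (adjusted p = 0.0253); it kept its sign in every alternative and lost its call without any of the MEF or CHIR-99021 libraries and with total counts only. The 3 genes of the c ring, whose mature proteins are alike, gave no call in the comparisons with MEFs (edgeR; at an unadjusted p under 0.05, 2 were higher with carbidopa and 1 lower with LY-364747). Atp5g1 was at 50.2 and 50.9 CPM in control MEFs, 54.9 and 41.2 under carbidopa, 41.3 and 40.3 under LY-364747 and 42.3 and 40.7 under CHIR-99021. All treated libraries except Carbidopa 1 lay below the MEF libraries. Its change was −0.07 ± 0.13, −0.31 ± 0.13 and −0.28 ± 0.13 (adjusted p = 0.697, 0.109 and 0.118), and without Carbidopa 1 it was −0.29, −0.31 and −0.28 (adjusted p = 0.0345, 0.00782 and 0.0111), a fall in each case. Atp5g2 was at 73.6 and 75.2 CPM in MEFs, then 102 and 81.0 after carbidopa, 83.1 and 77.7 after LY-364747 and 61.8 and 68.8 after CHIR-99021. Its level with CHIR-99021 was below that with carbidopa, at a log2 difference of −0.48 ± 0.12 (adjusted p = 0.0261), also without Carbidopa 1 (−0.31, adjusted p = 0.0448), though 35.8% of its exon words are shared with other genes. Atp5g3 changed by 0.29 (0.13 without Carbidopa 1), 0.05 and 0.07 with no call.

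**Figure D4:**
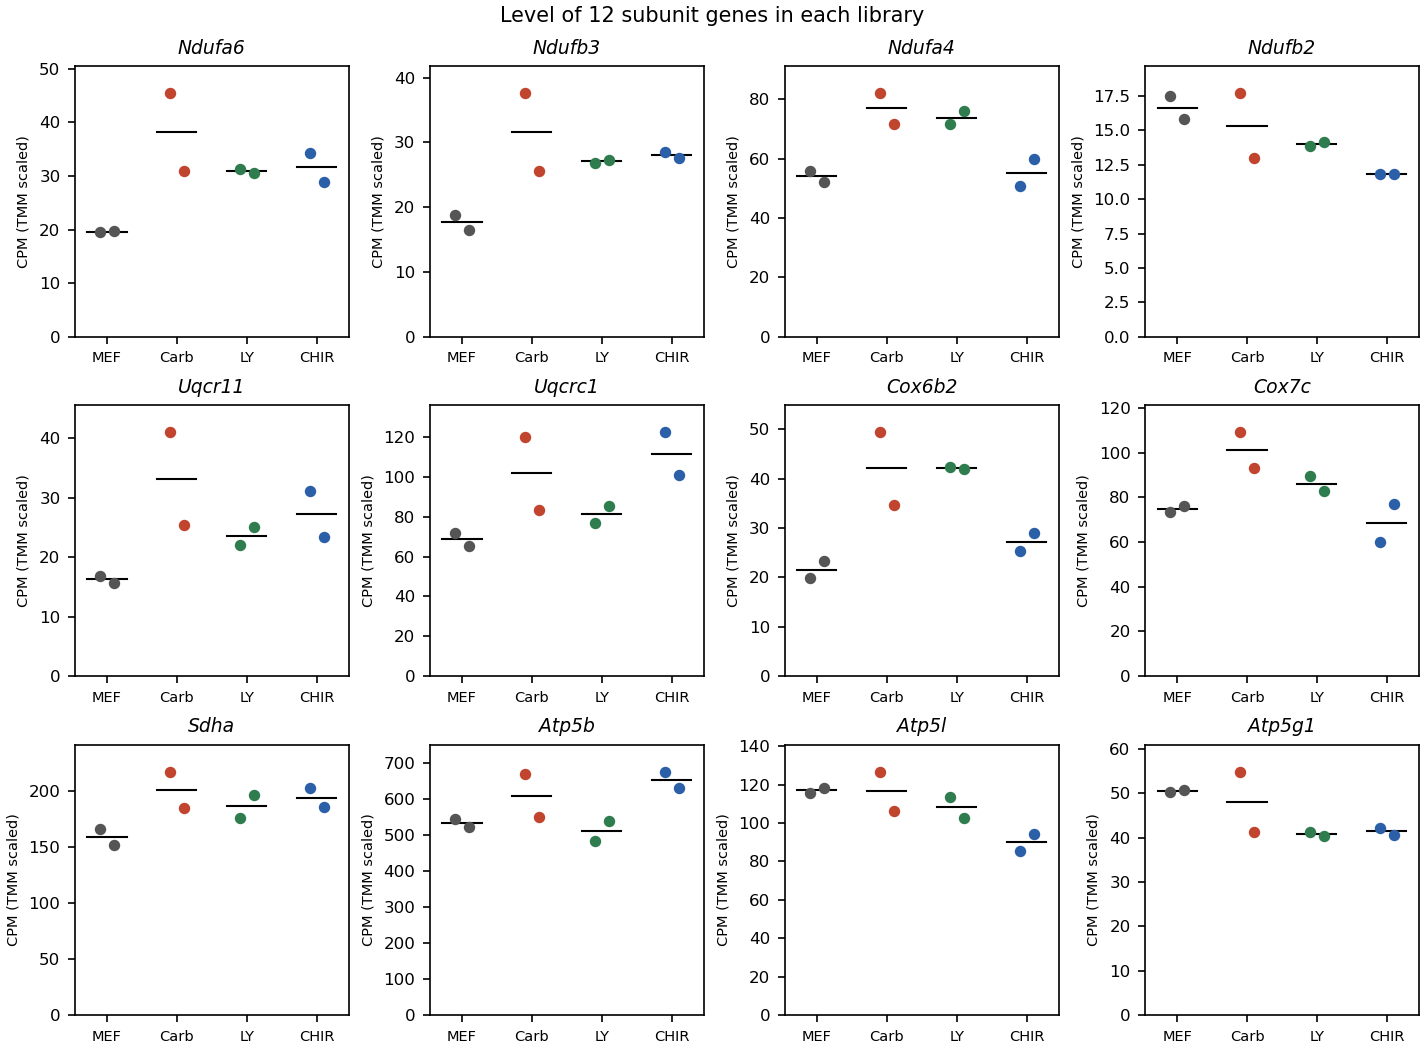
Level in CPM with TMM scaling (y axis, from 0) of 12 subunit genes in MEFs and in cells treated with carbidopa (Carb), LY-364747 (LY) and CHIR-99021 (CHIR); points are the 2 libraries, library 1 on the left, and the line is their mean. Ndufa6, Ndufb3 and Uqcr11 are above the MEFs in all 6 treated libraries. Cox6b2 is higher with carbidopa and LY-364747 than with CHIR-99021 or in MEFs, and Ndufb2 and Atp5l are lowest with CHIR-99021.

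Treatments were also compared with each other at the same 10 µM. With CHIR-99021, 10 of 75 subunit genes were lower than with carbidopa and none higher (edgeR), where 8.08% of all genes were lower and 6.65% higher; the unadjusted numbers were 31 and 0, and DESeq2 called 11 and 0. The 10 were Cox6b2, Cox6c, Cox7c and Cox8a of complex IV, Ndufa3, Ndufa4 and Ndufc1 of complex I by symbol (Ndufa4 since assigned to complex IV), Uqcrb of complex III and Atp5g2 and Atp5k of complex V. The median difference was −0.27, and both CHIR-99021 libraries were below both carbidopa libraries in 39 of 75 genes, compared with 26.3% of all genes. Without Carbidopa 1, 5 of the 10 remained (Cox6c, Cox7c, Ndufa3, Ndufa4 and Atp5g2), Uqcrc1 was higher (9.16% of all genes were lower and 9.03% higher), and the median was −0.07. None of the 10 remained in a fit of these groups alone (edgeR, 19 lower at an unadjusted p under 0.05). Which of them were called also moved with the library left out. The median was −0.49 without Carbidopa 2, and −0.32 to −0.27 without any 1 of the MEF, LY-364747 or CHIR-99021 libraries.

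Cox7c (chr13:86044816-86046904), a small subunit of complex IV, was at 73.3 and 76.1 CPM in control MEFs, 109 and 93.0 under carbidopa, 89.3 and 82.7 under LY-364747 and 60.1 and 77.1 under CHIR-99021. CHIR-99021 1 was the lowest of the 8 libraries and CHIR-99021 2 was near the MEFs. It was lower with CHIR-99021 than with carbidopa, with a log2 difference of −0.56 ± 0.13 (adjusted p = 0.0196) and, without Carbidopa 1, of −0.44 (adjusted p = 0.0337), with 19.6% of its exon words shared with other genes. Ndufc1, a small membrane subunit of complex I, was at 14.1 and 12.0 CPM in MEFs, then 16.1 and 14.9 after carbidopa, 13.7 and 14.7 after LY-364747 and 9.89 and 11.4 after CHIR-99021. The CHIR-99021 libraries were the lowest. Their log2 difference to carbidopa was −0.55 ± 0.15 (adjusted p = 0.0332); without Carbidopa 1 the difference was −0.49 (adjusted p = 0.0525). Ndufa3, another membrane subunit, was at 39.7 and 38.8 CPM in control MEFs, 48.2 and 50.8 under carbidopa, 47.6 and 44.4 under LY-364747 and 33.1 and 36.3 under CHIR-99021. Here Carbidopa 1 was not above Carbidopa 2, and the CHIR-99021 libraries were below all others. The difference was −0.51 ± 0.10 against carbidopa (adjusted p = 0.00902; −0.54 and 0.00354 without Carbidopa 1) and −0.40 ± 0.10 against LY-364747 (adjusted p = 0.0275).

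Against LY-364747, 3 subunit genes were lower with CHIR-99021 (Cox6b2, Ndufa3 and Ndufa4) and none higher, where 7.69% of all genes were lower and 6.46% higher; the unadjusted numbers were 11 and 3, and DESeq2 called 3 and 1. All 3 remained without Carbidopa 1, where 11 were lower and 6 higher (12.5% and 14.2% of all genes), and at most 1 was called without any MEF, LY-364747 or CHIR-99021 library. Between LY-364747 and carbidopa edgeR called none of the 75 genes, where 0.0132% of all genes differed; 9 were lower with LY-364747 at an unadjusted p under 0.05, none higher, and DESeq2 called none. The median difference was −0.23, and −0.03 without Carbidopa 1. Without Carbidopa 2 the median difference was −0.40.

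The genes around the complexes were counted in the same fit. Over all genes tested in it, 18.0%, 13.7% and 18.7% rose with carbidopa, LY-364747 and CHIR-99021, and 19.7%, 17.2% and 20.1% fell. The counts of the lists were not tested against these shares. Without Carbidopa 1, the median log2 fold change with carbidopa went from 0.26 to 0.14 for the subunits outside the rule and 0.25 to 0.08 for assembly factors. It went from 0.08 to 0.01 for regulators, 0.18 to −0.02 for TCA cycle enzymes and 0.22 to 0.04 for import genes. The medians with LY-364747 and CHIR-99021 were nearly the same in both fits. For assembly factors they were 0.10 and 0.09 with LY-364747 and 0.25 and 0.26 with CHIR-99021. Of 7 tested subunit genes outside the naming rule, 3 rose with carbidopa, 1 fell with LY-364747 and 1, Cyc1, rose with CHIR-99021. Cyc1, the cytochrome c1 of complex III, was at 30.2 and 24.5 CPM in MEFs, then 35.4 and 30.1 after carbidopa, 28.5 and 30.4 after LY-364747 and 45.7 and 37.6 after CHIR-99021, and rose by 0.61 ± 0.15 (adjusted p = 0.00830) with CHIR-99021. Of the 13 subunits encoded in mitochondrial DNA, only 3 were found under a single symbol in the count table (mt-Nd3, mt-Nd4l and mt-Cytb). These 3 include none of complex IV or V. They summed to 14444 to 19238 CPM per library with overlapping groups, and neither edgeR nor DESeq2 called any of them, with none at an unadjusted p under 0.05. Of 46 assembly factors, 9, 2 and 8 rose and 1, 1 and 2 fell with carbidopa, LY-364747 and CHIR-99021. The rises with carbidopa and CHIR-99021 were close to the shares of all genes, and the other counts were below theirs. Cox17, which carries copper to complex IV, was at 18.5 and 18.2 CPM in control MEFs, 35.8 and 29.2 under carbidopa, 29.9 and 27.5 under LY-364747 and 30.5 and 27.8 under CHIR-99021. It rose by 0.82 ± 0.13, 0.64 ± 0.13 and 0.67 ± 0.13 (adjusted p = 0.000808, 0.00419 and 0.00301). Coa5, another complex IV assembly factor, fell by 0.50, 0.40 and 0.57 on the log2 scale (adjusted p = 0.00700, 0.0241 and 0.00312).

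Of 17 regulators of mitochondrial gene expression, 5, 3 and 4 rose and 1 fell in each comparison. Over all genes, 18.0%, 13.7% and 18.7% rose with carbidopa, LY-364747 and CHIR-99021, and 19.7%, 17.2% and 20.1% fell. Ppargc1a, the coactivator PGC-1alpha that drives mitochondrial biogenesis, was low in the controls, with 0.743 and 1.42 CPM in MEFs, then 7.67 and 12.4 after carbidopa, 9.14 and 7.45 after LY-364747 and 5.81 and 5.68 after CHIR-99021. All treated libraries were above both MEF libraries. It rose by 3.19 ± 0.34, 2.91 ± 0.34 and 2.38 ± 0.35 on the log2 scale (adjusted p = 4.38e-05, 9.84e-05 and 0.000455), the largest changes of this list. Nrf1, whose word was counted in the promoters, was at 13.0 and 13.7 CPM in control MEFs, 23.1 and 16.0 under carbidopa, 21.1 and 20.2 under LY-364747 and 32.2 and 26.9 under CHIR-99021. It rose most with CHIR-99021 (1.14 ± 0.18, adjusted p = 0.000642), and by 0.55 ± 0.18 and 0.63 ± 0.18 with carbidopa and LY-364747 (adjusted p = 0.0353 and 0.0234); without Carbidopa 1 the carbidopa change was 0.26 (adjusted p = 0.203). Twnk, the mitochondrial DNA helicase, rose by 0.83 ± 0.18, 0.75 ± 0.18 and 1.07 ± 0.18 (adjusted p = 0.00523, 0.00977 and 0.00103). Whether these regulators have a part in the subunit levels was not tested.

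The 78 mitochondrial ribosomal protein genes make the ribosome that translates the mitochondrially encoded subunits. With carbidopa 25 of them rose and none fell (edgeR, also none at an unadjusted p under 0.05 and none with DESeq2). Their median log2 fold change with carbidopa was 0.38, and 0.16 without Carbidopa 1. With CHIR-99021 29 rose and 1 fell, and with LY-364747 edgeR called none (8 were higher at an unadjusted p under 0.05, none with DESeq2). The medians with CHIR-99021 and LY-364747 were 0.36 and 0.14, both with all 8 libraries and without Carbidopa 1. With all 8 libraries, 18.0%, 13.7% and 18.7% of all genes rose with carbidopa, LY-364747 and CHIR-99021, and 19.7%, 17.2% and 20.1% fell. The same shares apply to the lists below. Mrpl38 rose by 0.79 ± 0.15 with CHIR-99021 (adjusted p = 0.00191). Of 14 TCA cycle enzymes, 5 rose and 2 fell with carbidopa, 1 fell with LY-364747 and 6 rose with CHIR-99021. Idh2, the mitochondrial isocitrate dehydrogenase, rose by 0.72 ± 0.13 with carbidopa (adjusted p = 0.00215). Of 25 import and outer membrane genes, 7 rose with carbidopa, 5 fell with LY-364747, and 6 rose and 2 fell with CHIR-99021. Timm10, a chaperone of the intermembrane space, rose by 1.08 ± 0.22 with CHIR-99021 (adjusted p = 0.00362). The 76 cytosolic ribosomal protein genes were also short and highly transcribed. They gave 12 rises and 1 fall with carbidopa, 1 fall with LY-364747 and 14 falls with CHIR-99021. Their median log2 fold changes were 0.23, −0.003 and −0.13, and without Carbidopa 1 they were 0.01, −0.003 and −0.12. With the correction for length 39 fell with CHIR-99021, where 3580 of all 15126 genes fell. With all 8 libraries, the carbidopa rises and CHIR-99021 falls of these 76 genes were close to the shares of all genes (18.0% and 20.1%). Their other counts were below those shares. Rpl39, a small protein of the large ribosomal subunit, fell by 0.36, 0.49 and 0.95 on the log2 scale (adjusted p = 0.0317, 0.00854 and 0.000126).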

How the data were processed

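RNA-seq was performed on 8 libraries, 2 for each of 4 groups. The authors aligned reads with STAR 2.4.2a to mm10 and counted them per gene with featureCounts, and the deposited values are raw counts. The annotation release, the use of strand and the treatment of reads that fit several genes are not given in the sources used here, and the labels and the methods name different library kits. No table column was left without a sample (0). Symbols are those of the deposited count table. Positions, protein-coding status and exons were taken from GENCODE M21 (GRCm38), and a length is that of the merged exons. Reads of near-identical genes cannot be told apart: 15 of 80 members share over 10% of their 75-base exon words with other genes.

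Counts were fitted in R 4.3.3 with edgeR 4.0.16 (quasi-likelihood test, TMM scaling, filterByExpr, 1 fit over 8 libraries with group as the term), with Benjamini-Hochberg adjustment over 15154 genes and a threshold of 0.05. CPM are TMM scaled, an SE is the log2 fold change over the square root of F, and the biological coefficient of variation was 11.0%. The fit was tested on simulated counts with 200 changed genes. Replicate libraries differed by more than sampling noise (chi-square per degree of freedom 4.31 in MEFs, 34.6 with carbidopa, 7.25 with LY-364747 and 9.21 with CHIR-99021). Alternatives were DESeq2 1.42.0, other scalings and filters, a replicate block, the compared groups alone, each library left out and, chosen after seeing the data, an offset for transcript length per library (a lowess curve on log2 length).

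The members, the gene lists and the rules were chosen with earlier results of these data known. Named members are the 4 highest and 4 lowest called log2 fold changes of each comparison with MEFs, the 3 and 3 between treatments, the highest per length of each complex, the paralogue families and the 4 Sdh genes. Of each further list (subunits outside the rule, mitochondrially encoded subunits, assembly factors, regulators, TCA cycle enzymes, mitochondrial and cytosolic ribosomal proteins, import) the gene of smallest p and those called in all 3 comparisons, at most 4, are named. Other genes named were chosen after their values were seen.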

Additional observations from a re-analysis of the deposited data

How the results depend on the processing

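With totals of 15039566 to 20504338 reads, 75 of 80 members could be tested, and the spread rests on 2 libraries per group. Counts of members called moved with the processing as follows, and the cause was not tested unless stated. The counts over all genes moved as well and are not given beside each number here. With total counts only, the rises over all genes with LY-364747 went from 2081 to 4232. With upper-quartile scaling, the genes lower with CHIR-99021 than with carbidopa went from 1224 to 1446. The shifts below cannot be read as particular to the subunit genes. With carbidopa (41 higher, 0 lower against MEFs), 67 were higher with total counts only, 21 with length offsets, 19 with the compared groups alone, and 11 higher and 1 lower with length offsets without Carbidopa 1; leaving out 1 library gave 9 to 67 higher and 0 to 1 lower. With LY-364747 (8 and 0), 32 were higher with total counts only, 29 higher and 1 lower with the compared groups alone, and 16 and 2 with length offsets without Carbidopa 1; leaving out 1 library gave 1 to 23 higher and 0 to 1 lower. With CHIR-99021 (11 and 2), the numbers were 31 and 0 with total counts only, 19 higher with no filter, 27 and 5 with the compared groups alone, 10 lower with length offsets and 18 and 15 with length offsets without Carbidopa 1; leaving out 1 library gave 0 to 27 higher and 0 to 6 lower. Between CHIR-99021 and carbidopa (0 and 10), 16 were lower with upper-quartile scaling, 21 with no filter and 0 with the compared groups alone, and 1 was higher and 6 lower with length offsets without Carbidopa 1; leaving out 1 library gave 0 to 1 higher and 0 to 59 lower. Between CHIR-99021 and LY-364747 (0 and 3), 3 were higher with no filter, 5 lower with upper-quartile scaling, 1 higher and 7 lower with length offsets, 3 and 9 with the compared groups alone, 4 and 12 with length offsets without Carbidopa 1, and 1 higher with DESeq2; leaving out 1 library gave 0 to 6 higher and 0 to 11 lower. Between LY-364747 and carbidopa (0 and 0), leaving out 1 library gave 0 to 60 lower and 0 higher. The summed level of MEFs was 4069 CPM with total counts only and 4662 with library sizes without mitochondrially encoded genes, and that of CHIR-99021 5017 with upper-quartile scaling and 5280.1 with total counts only. No named member changed sign among its called results. The differences between libraries 1 and 2 correlated weakly between groups (r of −0.16 to 0.13). With 1 difference per group this gave no clear sign of pairing by number, and it cannot exclude a shared culture or batch. With a replicate block, 38 members were higher with carbidopa, 8 with LY-364747 and 11 higher and 2 lower with CHIR-99021. In that fit 8 and 2 were lower with CHIR-99021 than with carbidopa and LY-364747.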
